A study of Homo sapiens with 4 samples.

Results

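Complex I assembly factors are 10 genes in the deposited expression table of HMLE cells, a mammary epithelial line of human origin that was immortalized in culture. They were found by symbol (ECSIT, NDUFAF1, ACAD9, TMEM126B, TIMMDC1, NDUFAF2, NDUFAF3, NDUFAF4, NUBPL and FOXRED1), each symbol had 1 row, and the table holds 60302 rows in all. In 2 samples the cells stably expressed a lentiviral hairpin against hnRNPF (hnRNPF KD, replicates 1 and 2), and in the other 2 a non-specific hairpin (control, replicates 1 and 2). The design text speaks of pairs of cell lines, and the labels do not say whether the lines of a group carry different hairpins or came from separate infections. The p-values therefore measure only the spread between these samples. PolyA-selected RNA was sequenced, and levels are FPKM, which count sequenced fragments relative to transcript length and to the total of the library. Genes are compared on log2(FPKM + 1), which understates the change of low genes. The family was chosen by the FPKM of ECSIT in this same comparison, since its mean in the knockdown samples was 0.505 of that in the controls. Its difference is therefore a description, with no test.

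Complex I, the NADH dehydrogenase of mitochondria, carries electrons from NADH to ubiquinone and pumps protons across the inner membrane. It is built in modules from nuclear and mitochondrially encoded subunits, and the assembly factors hold these intermediates without staying in the finished enzyme. ECSIT, NDUFAF1, ACAD9 and TMEM126B form the mitochondrial complex I intermediate assembly (MCIA) complex, which works on the membrane arm. TIMMDC1 is also needed for the membrane arm, and the remaining members act on other modules or at other steps.

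The targeted gene matched the labels. HNRNPF stood at 18.7 and 16.6 FPKM in the knockdown samples, against 154 and 153 FPKM in the controls. It was 8.71-fold lower in knockdown (limma, adjusted p = 0.0251), a call that was lost without control 1 (adjusted p = 0.262) or control 2 (adjusted p = 0.0995). It was also lost with no filter (adjusted p = 0.259), with no intensity trend (adjusted p = 0.0995) and with the replicate number as a block (adjusted p = 0.164). HNRNPF was the 1 called gene among the 13110 tested, which is 0.00763% in either direction. FPKM sums lay between 391184 and 396135 per sample. Low FPKM of single-exon genes fell on whole steps, within 0.02, in only 42.8% to 45.5% of cases, so reads could not be recovered and the number of fragments behind each value is unknown. Basal epithelial markers were abundant, with summed levels of 8851 and 9975 FPKM in knockdown and 6905 and 10415 FPKM in the controls. Of these 6 markers CDH3, KRT17 and TP63 were higher in each knockdown sample than in each control. For KRT5, KRT14 and ITGA6 the groups overlapped, with log2 differences of -0.14, 0.23 and -0.23. Of the 4 general epithelial markers, EPCAM (38.6 and 38.9 FPKM in knockdown, 56.4 and 45.9 FPKM in the controls) and KRT18 (121 and 146 FPKM in knockdown, 172 and 177 FPKM in the controls) were lower and KRT8 was higher without overlap. For CDH1 the groups overlapped, with a log2 difference of 0.59. None of these markers passed in limma (adjusted p from 0.762), and their part in the members' differences was not tested. The leukocyte marker CD3E was listed at 0 in every sample and PTPRC reached at most 0.0384 FPKM, while CD14 was at 1.43 and 0.699 FPKM in knockdown and 1.15 and 0.535 FPKM in the controls. The 6 fibroblast markers summed to between 10.02 and 13.3 FPKM, nearly all of it COL1A1. In bulk RNA, fewer cells of a type and less RNA per cell cannot be told apart.

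All 10 assembly factors passed the filter of 1 FPKM on the mean of the 4 samples. Of these, 8, ECSIT among them, had a mean log2 difference below 0 and 2 above 0. Of all tested genes 49.8% lay below 0, and that share also stands beside the counts below 0 of the lists that follow. For 5 members (ECSIT, TMEM126B, NDUFAF4, NDUFAF2 and FOXRED1) each knockdown sample was below each control, a pattern found in 17.1% of all tested genes. For 2 (NDUFAF3 and NUBPL) each was above, against 17.5% of all tested genes. The groups thus did not overlap for 7 of 10 members, against 34.6% of all tested genes, and they overlapped for 3. These counts come from the comparison by which the family was chosen and are descriptions. The median log2 difference of the members, ECSIT included, was -0.12, against 0.0012 over all tested genes, and is likewise a description. With adjustment over all genes, 0 of the 9 members other than ECSIT passed the threshold in limma. Of the 9 members other than ECSIT, 2 were lower and 1 higher at an unadjusted p under 0.05, against 3.02% and 3.06% of all tested genes. Their adjusted p-values lay between 0.683 and 0.999.

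**Figure D1:**
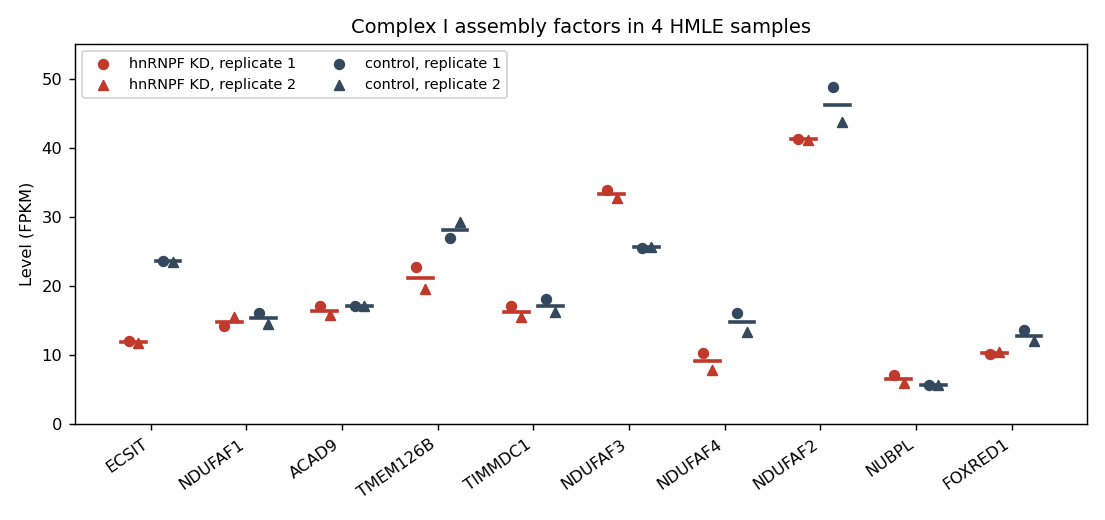
Level in FPKM of each assembly factor in every sample, with hnRNPF KD in red and control in dark blue, circles for replicate 1, triangles for replicate 2 and bars for group means. ECSIT at 12.0 and 11.8 FPKM in knockdown stands clear of 23.6 and 23.4 FPKM in the controls, while NDUFAF3 is the reverse, at 33.9 and 32.7 FPKM against 25.5 and 25.7 FPKM.

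ECSIT (ENSG00000130159.13, chromosome 19, 11616731 to 11639989, minus strand, GRCh37) was named as a signalling intermediate of the Toll pathway and is also a core part of the MCIA complex. It stood at 12.0 and 11.8 FPKM in the knockdown samples, against 23.6 and 23.4 FPKM in the controls. The samples of each group lay close together and the groups far apart. The means were 11.9 ± 0.156 FPKM in knockdown and 23.5 ± 0.166 FPKM in the controls (SD, n = 2 each), a 1.98-fold lower level and a log2 difference of -0.93. Of the 13110 tested genes, 57 (0.435%), ECSIT among them, had a difference as low or lower. ECSIT was chosen for being lower in this comparison, so that share is a description. The locus of ECSIT overlaps that of ZNF653, a zinc finger gene on the same strand, by 8 bases. ZNF653 was at 1.71 and 1.51 FPKM in knockdown, against 1.40 and 1.51 FPKM in the controls. Summed with overlapping rows on its strand, ECSIT had a log2 difference of -0.83.

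The other MCIA members differed by less than ECSIT, in measured values. NDUFAF1, a chaperone of membrane arm intermediates, was at 14.2 and 15.4 FPKM in knockdown, against 16.1 and 14.4 FPKM in the controls. ACAD9, a flavoprotein related to the acyl-CoA dehydrogenases of fatty acid oxidation, was at 17.1 and 15.7 FPKM in knockdown and at 17.1 FPKM in both controls. For both genes the groups overlapped. Their log2 differences were -0.04 (95% interval -0.36 to 0.27) for NDUFAF1 and -0.06 (95% interval -0.34 to 0.23) for ACAD9. These intervals do not reach a change of the size seen in ECSIT, which was chosen for its change. The difference between these genes and ECSIT was not tested. TMEM126B, a multipass protein of the inner membrane, was at 22.7 and 19.5 FPKM in knockdown, against 26.9 and 29.2 FPKM in the controls. Every knockdown sample was below every control, at a ratio of 0.752 between the means. The log2 difference of -0.40 (SE 0.122) did not pass in limma (adjusted p = 0.779).

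Because FPKM are scaled for gene length, levels within a sample can be set against each other. The ratio of ECSIT to NDUFAF1 was 0.846 and 0.762 in knockdown, against 1.47 and 1.62 in the controls. ECSIT was thus below NDUFAF1 in both knockdown samples and above it in both controls. The ratio of TMEM126B to NDUFAF1 was 1.60 and 1.26 in knockdown, against 1.67 and 2.02 in the controls. The ratios of ACAD9 to NDUFAF1 were 1.21 and 1.02 in knockdown and 1.06 and 1.18 in the controls, which overlap. The ECSIT ratio repeats the measure by which ECSIT was chosen and is a description.

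**Figure D2:**
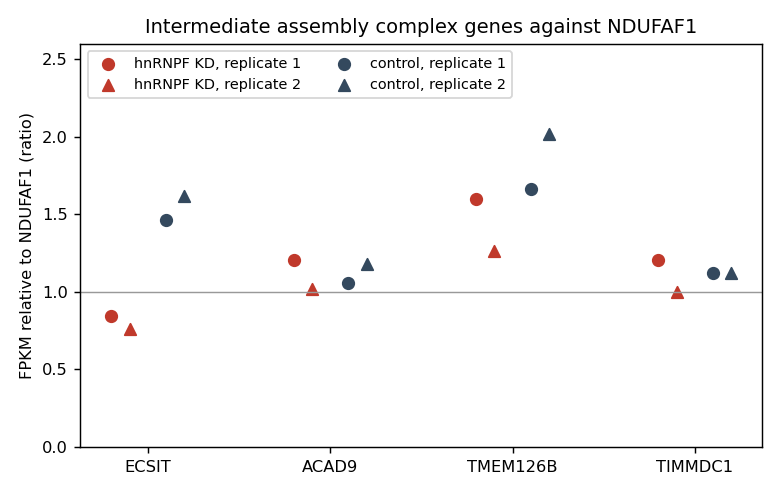
FPKM of ECSIT, ACAD9, TMEM126B and TIMMDC1 divided by that of NDUFAF1 in the same sample, with hnRNPF KD in red and control in dark blue and the line at a ratio of 1. Only for ECSIT among these 4 genes do the groups lie on opposite sides of the line, at 0.846 and 0.762 in knockdown and 1.47 and 1.62 in the controls.

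hnRNP F binds runs of guanines, so the coding sequences of the members were searched for runs of 3 or more G on the sense strand. The sequences are those of the longest annotated coding transcript in GENCODE 29. The 30 coding bases richest in such runs are shown for the 5 members that differed most, ECSIT, NDUFAF4, TMEM126B, NDUFAF3 and FOXRED1, with runs of 3 or more G in capitals.
ECSIT: tctgtaGGGcctGGGGaggcacctgcGGGG
NDUFAF4: atGGGagcactagtgattcgcggtatcagg
TMEM126B: tcGGGtatgaggctGGGactaagccaaGGG
NDUFAF3: gttgagcttccctGGGccccgcggcgaGGG
FOXRED1: gaGGGttctgccgcacggcatGGGccGGGG
Counted from the first base of the start codon, these stretches start at coding base 38 in ECSIT, 1 in NDUFAF4 and 11 in TMEM126B. They start at base 64 in NDUFAF3 and 9 in FOXRED1. Where stretches tied, the first was taken, so these starts depend in part on that rule. NDUFAF4 has 2 runs in its coding sequence, and the stretch shown holds the first of them. The ECSIT stretch holds 11 G in 3 runs, as do the richest stretches of ACAD9 and NUBPL, and that of NDUFAF4 holds 3 G in 1 run.

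The density of G runs varied among the members, and its part in their differences was not tested. ECSIT had 23 runs in 1293 coding bases, or 17.8 per kb, above 78.9% of the 11419 coding sequences of tested genes that were matched (median 12.1 per kb). FOXRED1 was alike, at 18.5 per kb. NDUFAF4, the member with the next lowest difference, had 2 runs in 525 coding bases, or 3.81 per kb, and only 3.3% of coding sequences had fewer. TMEM126B was also low at 7.25 per kb, and NDUFAF3 was near the median at 12.7 per kb. A motif of 4 runs of at least GGG, each followed by the next after 1 to 7 bases, was absent from the coding sequences of all 10 members. It was present in 5.78% of the 2646 coding sequences within 20% of the length of ECSIT and in 6.53% of all those matched. Introns and untranslated regions were not searched.

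TIMMDC1, an inner membrane protein needed for the membrane arm, was at 17.03 and 15.4 FPKM in knockdown, against 18.1 and 16.2 FPKM in the controls. The groups overlapped, with a log2 difference of -0.07 (95% interval -0.39 to 0.25).

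NDUFAF3 and NDUFAF4, which bind each other and act on the ubiquinone-binding module, differed in opposite directions. NDUFAF4 (chromosome 6, 97337189 to 97345757, minus strand) was at 10.3 and 7.81 FPKM in knockdown, against 16.1 and 13.3 FPKM in the controls. Every knockdown sample was below every control, and replicate 2 was the lower sample in each group. The ratio of the means was 0.617 and the log2 difference -0.65 (SE 0.183), which did not pass in limma (adjusted p = 0.765). NDUFAF3 (chromosome 3, 49057892 to 49060928, plus strand) was at 33.9 and 32.7 FPKM in knockdown, against 25.5 and 25.7 FPKM in the controls. Samples of a group were close together and the groups did not overlap. The ratio of the means was 1.30 and the log2 difference 0.37 (SE 0.0910), again without passing in limma (adjusted p = 0.683). The difference between these 2 genes was not tested.

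The NDUFAF3 locus overlaps that of DALRD3, a gene for a tRNA methylation cofactor, by 1835 bases on the opposite strand. DALRD3 was at 11.9 and 11.5 FPKM in knockdown, against 14.5 and 14.6 FPKM in the controls, lower where NDUFAF3 was higher. The ratio of NDUFAF3 to DALRD3 was 2.83 and 2.85 in knockdown and 1.76 in both controls. Their summed FPKM were 45.8 and 44.3 in knockdown, against 40.02 and 40.3 in the controls, so the sum also differed. The libraries were stranded, per the labels. Whether strand was used in counting is not given in the sources used here, and the part of the overlap in the values was not tested.

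NDUFAF2, a late factor and a paralog of the subunit NDUFA12, was the most abundant member in every sample. It was at 41.3 and 41.1 FPKM in knockdown, against 48.8 and 43.6 FPKM in the controls. The groups were separate but control 2 lay close to the knockdown samples, and the log2 difference was -0.16 (95% interval -0.43 to 0.11). FOXRED1, a flavin-dependent oxidoreductase-like protein, was at 10.1 and 10.3 FPKM in knockdown, against 13.6 and 12.0 FPKM in the controls. Its groups did not overlap, and the log2 difference of -0.29 (95% interval -0.62 to 0.03) did not pass in limma (adjusted p = 0.836). NUBPL, which delivers iron-sulfur clusters to the complex, was the lowest member in every sample. It was at 7.05 and 5.97 FPKM in knockdown, against 5.71 and 5.57 FPKM in the controls. The log2 difference of NUBPL was 0.17 (95% interval -0.21 to 0.56), and it was 0.07 without knockdown 1, the highest sample.

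**Figure D3:**
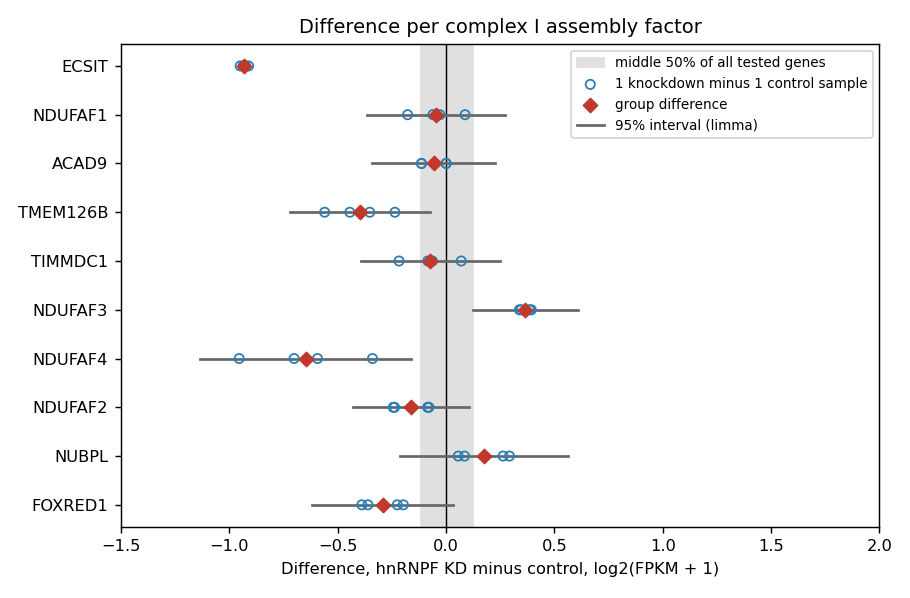
Difference on log2(FPKM + 1), hnRNPF KD minus control, for each assembly factor: red diamonds are group differences, open circles the 4 pairs of 1 knockdown and 1 control sample, grey lines 95% intervals from limma (none drawn for ECSIT) and the grey band the middle 50% of all tested genes. ECSIT lies at -0.93 with its 4 pairs close together, and the pairs of NDUFAF4 spread from -0.95 to -0.34.

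The order of the members by level differed between the groups for ECSIT and for the pair NDUFAF3 and TMEM126B, and other changes of place were among members that overlapped in at least 1 group. In the knockdown samples NDUFAF2 came first, followed by NDUFAF3, TMEM126B, ACAD9, TIMMDC1, NDUFAF1, ECSIT, FOXRED1, NDUFAF4 and NUBPL by mean FPKM. In that order ACAD9 and TIMMDC1 overlapped over their samples, as did FOXRED1 and NDUFAF4. In the controls the order was NDUFAF2, TMEM126B, NDUFAF3, ECSIT, TIMMDC1, ACAD9, NDUFAF1, NDUFAF4, FOXRED1 and NUBPL. There TIMMDC1 overlapped ACAD9, NDUFAF1 overlapped NDUFAF4 and NDUFAF4 overlapped FOXRED1. ECSIT ranked 7 of 10 in each knockdown sample and 4 of 10 in each control, the largest shift in rank of the members. The summed level of the 10 genes was 186 and 176 FPKM in knockdown, against 212 and 201 FPKM in the controls. Without ECSIT it was 174 and 164 FPKM in knockdown, against 188 and 177 FPKM in the controls, so knockdown 1 and control 2 were then close.

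Further factors that act in complex I assembly were taken as a list of 12, all of them tested. Of these 9 lay below 0 and 3 above, with a median log2 difference of -0.03, and 0 passed in limma in either direction (adjusted p from 0.720 to 0.999). In 3 of the 12 each knockdown sample was below each control, and in 1 above, against 17.1% and 17.5% of all tested genes. ATP5SL (now DMAC2), a factor of the distal membrane arm, was at 18.8 and 21.1 FPKM in knockdown, against 26.3 and 28.3 FPKM in the controls. TMEM70, a membrane protein of complex I and ATP synthase assembly, was at 10.3 and 9.26 FPKM in knockdown, against 12.6 and 12.3 FPKM in the controls. TMEM186, a further MCIA-associated protein, was at 8.52 FPKM in both knockdown samples, against 11.7 and 10.2 FPKM in the controls. OXA1L, the insertase of the inner membrane, was the 1 with both knockdown samples above, at 65.7 and 54.3 FPKM, against 49.8 and 53.9 FPKM in the controls. COA1, another MCIA-associated gene, followed the replicate number, with 21.1 and 16.6 FPKM in knockdown and 22.02 and 15.9 FPKM in the controls. NDUFAF5, an arginine hydroxylase of a core subunit, did so as well, at 12.5 and 7.20 FPKM in knockdown and 12.7 and 7.39 FPKM in the controls. For COA1 and NDUFAF5 replicate 2 was the lower sample in each group. The same held for the members ECSIT, TIMMDC1, NDUFAF2, NDUFAF4 and NUBPL, by amounts that differed among them.

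The subunits of complex I itself lay on both sides of 0. The 7 nuclear core subunits had 3 members below 0 and 4 above (median log2 difference 0.02), and 0 passed in limma (adjusted p from 0.830). NDUFS1, the largest iron-sulfur subunit, was at 38.3 and 20.5 FPKM in knockdown, against 17.9 and 13.04 FPKM in the controls. Knockdown 1 stood apart there, and the group difference did not pass in limma (adjusted p = 0.830). Among the 30 supernumerary subunits 16 lay below 0 and 14 above, with a median of -0.0035 and 0 called. NDUFA13, a subunit also known as GRIM-19, was at 70.2 and 68.8 FPKM in knockdown, against 49.6 and 39.9 FPKM in the controls. NDUFA12, which takes the place of NDUFAF2 late in assembly, was at 32.0 and 28.8 FPKM in knockdown, against 39.4 and 42.9 FPKM in the controls. Neither passed in limma (adjusted p = 0.607 for NDUFA13 and adjusted p = 0.688 for NDUFA12).

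The 7 mitochondrially encoded core subunits all lay above 0 (median log2 difference 0.14), with 0 called. They summed to 11417 and 11000 FPKM in knockdown, against 12009 and 8658 FPKM in the controls, so control 2 was the low sample. The sum of all 13 mitochondrially encoded mRNAs, listed as a sign of RNA quality, was likewise lowest in control 2, with 31102 and 32440 FPKM in knockdown and 31978 and 24742 FPKM in the controls. The part of this shift in the differences of the members, ECSIT included, was not tested.

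Assembly factors of the other respiratory complexes also lay on both sides of 0. Of 23 complex IV assembly factors 11 lay below 0 and 12 above (median 0.01), and of 12 for complexes II, III and V 8 lay below and 4 above (median -0.04), with 0 called in either list. SCO2, a copper chaperone of cytochrome c oxidase, was at 24.5 and 21.0 FPKM in knockdown, against 8.72 and 11.9 FPKM in the controls. Its log2 difference of 1.08 (SE 0.183) was larger in size than that of ECSIT and of opposite sign, and did not pass in limma (adjusted p = 0.513). ATPAF1, a chaperone of the ATP synthase beta subunit, was at 13.8 and 10.3 FPKM in knockdown, against 7.61 and 8.30 FPKM in the controls. For both genes every knockdown sample was above every control. Each knockdown sample lay below each control for 4 of the 23 complex IV factors and 1 of the other 12. The share was 4 of the 9 complex I assembly factors other than ECSIT and 17.1% of all tested genes. Among complex I subunits it was 3 of 7 nuclear core, 6 of 30 supernumerary and 0 of 7 mitochondrially encoded ones. Each knockdown sample lay above each control for 1, 5 and 1 of these subunits, in that order, against 17.5% of all tested genes. This higher pattern also held for 3 of the 23 complex IV factors and 2 of the 12 for complexes II, III and V. Among the 9 complex I assembly factors other than ECSIT it held for 2, NDUFAF3 and NUBPL. The difference between the lists was not tested.

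**Figure D4:**
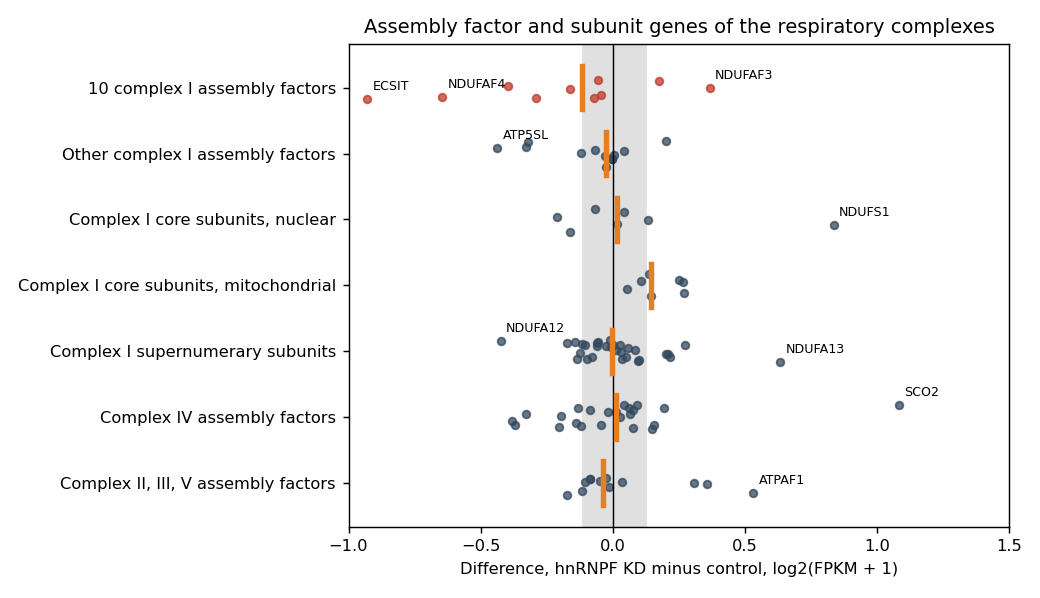
Difference on log2(FPKM + 1), hnRNPF KD minus control, of each tested gene in 7 lists, with an orange bar at each list's median and a grey band for the middle 50% of all tested genes; the vertical spread within a list has no meaning. The 10 complex I assembly factors, in red, have a median of -0.12, against -0.03 for the other 12 assembly factors and 0.01 for the complex IV assembly factors. The first median includes ECSIT, by which the family was chosen, and the difference between the lists was not tested.

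The genes whose pattern over the 4 samples was most like that of ECSIT were CCDC25, ARFIP1, PLEKHA3, UBAC1 and SGMS1. Likeness was the Euclidean distance between centred log2(FPKM + 1) values, which lay between 0.114 and 0.147 for these 5 genes. CCDC25 was at 9.75 and 9.85 FPKM in knockdown, against 21.7 and 19.8 FPKM in the controls. UBAC1, a subunit of a ubiquitin ligase, was at 13.6 and 15.1 FPKM in knockdown, against 27.2 and 27.7 FPKM in the controls. ARFIP1, which binds ARF family GTPases, was at 7.29 and 7.99 FPKM in knockdown, against 16.3 and 15.5 FPKM in the controls. PLEKHA3, which binds phosphoinositides at the Golgi, was low throughout, at 0.658 and 0.530 FPKM in knockdown, against 2.09 and 1.79 FPKM in the controls. SGMS1, a sphingomyelin synthase gene, was at 5.27 and 5.50 FPKM in knockdown, against 9.96 and 10.3 FPKM in the controls. With 4 samples such likeness says little more than that these genes were lower by a similar amount.

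Within 50 kb of ECSIT, 4 other genes had a mean of at least 1 FPKM. The nearest on its upstream side, the transcription elongation factor gene ELOF1, was at 38.7 and 37.8 FPKM in knockdown, against 16.4 and 38.5 FPKM in the controls. Control 1 stood apart for ELOF1, and the other 3 samples lay between 37.8 and 38.7 FPKM. ZNF627, a zinc finger gene, was at 1.22 and 1.83 FPKM in knockdown, against 3.46 and 3.60 FPKM in the controls (log2 difference -0.85, adjusted p = 0.608 in limma). ACP5, an acid phosphatase gene, was at 2.14 and 1.51 FPKM in knockdown and 2.13 and 1.37 FPKM in the controls.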

How the data were processed

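The deposited table gives FPKM made by the authors, 1 column per sample. Per the submitters' processing notes the tools were Cuffdiff 2.2.1 and STAR 2.5.3a and the build GRCh37, with no role given for any of them; the annotation release is not given in the sources used here. Coordinates are those of the table. Groups come from the sample titles. Rows with a mean of at least 1 FPKM (13110) were transformed as log2(FPKM + 1) and fitted with R 4.3.3 and its package limma 3.58.1, using an intensity trend, no covariate and Benjamini-Hochberg adjustment over all rows at 0.05, two-sided. An exact permutation test of 2 against 2 samples cannot go below 0.333 and was not used. The fit was tested on simulated data with known changes. Differences are hnRNPF KD minus control. Ratios and folds are of mean FPKM. Named genes are the members, HNRNPF and genes with the smallest p of each list (all may be named among the other complex I factors). Also named are the 5 genes nearest to ECSIT, after the exclusions given with them, and the neighbours of ECSIT within 50 kb. COA1, NDUFAF5, the markers and the neighbours were chosen after their values were seen. The members and lists were chosen with earlier results of these data known. The list symbols NDUFAF8, DMAC1 and DMAC2 were matched as C17orf89, TMEM261 and ATP5SL. GENCODE 29, on another build, gave gene types and coding sequences by gene identifier for 87.1% of tested rows. Python 3.11.15 was used for sequences and figures. The alternatives were other pseudocounts (0.1 and 0.5 FPKM), other filters (none and 5 FPKM), quantile normalization, median-ratio scaling, no trend, the replicate number as a block, leaving out each sample and, for members, sums with overlapping rows.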

Additional observations from a re-analysis of the deposited data

How the results depend on the processing

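The difference of ECSIT kept its direction in every alternative run, with log2 values from -0.94 to -0.92 when 1 sample was left out and from -0.98 to -0.83 otherwise. For ECSIT, TMEM126B, NDUFAF4, NDUFAF2, FOXRED1, NDUFAF3 and NUBPL the groups did not overlap. Leaving out a sample or changing the pseudocount, filter, trend or block could therefore not turn their sign, and only normalization or summed rows could. All of these genes kept their direction in every alternative. Of the 9 members other than ECSIT, 0 passed the adjusted threshold in any of them. When 1 sample was left out, 3 members with values near 0 turned: NDUFAF1 ranged from -0.12 to 0.03, ACAD9 from -0.11 to 0.0008 and TIMMDC1 from -0.15 to 0.0039. The count of lower genes, 1 (HNRNPF), was 0 with no filter, 0 without the trend and 0 with the replicate block, and from 0 to 1 when 1 sample was left out. The count of higher genes, 0, was from 0 to 1 when 1 sample was left out, the 1 being without knockdown 2; at an unadjusted p under 0.05 there were 401 higher genes. The replicate numbers are not stated to pair the samples: deviations of same-numbered samples correlated at 0.39 over tested genes, with 2 pairs. With the block, 1790 genes lay under an unadjusted p of 0.05, against 797 without it. Leaving out 1 sample moved the median of all genes by up to 0.06. Fragment totals are unknown, so counting error cannot be set beside any value.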

Other observations

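ECSIT also acts outside mitochondria, in Toll-like receptor and BMP signalling, and 9 genes of those routes were examined as a list. Of these 3 lay below 0 and 6 above, with a median log2 difference of 0.04, and 0 passed in limma. MYD88, the adaptor of most Toll-like receptors, was at 9.32 and 10.2 FPKM in knockdown, against 5.30 and 4.10 FPKM in the controls, so every knockdown sample was above every control (limma, adjusted p = 0.540). RELA, a subunit of NF-kappaB, was at 31.1 and 27.8 FPKM in knockdown, against 18.6 and 27.05 FPKM in the controls, and control 1 was the low sample. IRAK1, a kinase that acts after MYD88, was at 45.6 and 86.04 FPKM in knockdown, against 87.9 and 102 FPKM in the controls, and knockdown 1 set that difference. TRAF6, the ubiquitin ligase that binds ECSIT, was named for that role and not for its p, and was at 3.28 and 2.5 FPKM in knockdown, against 2.95 and 2.61 FPKM in the controls, with overlapping groups.

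Of 9 regulators of mitochondrial biogenesis 8 were tested, with 5 below 0, 3 above and a median log2 difference of -0.03, and 0 passed in limma. TFB2M, a mitochondrial transcription factor, was at 9.91 and 9.16 FPKM in knockdown, against 12.5 and 12.4 FPKM in the controls (adjusted p = 0.800). TFAM, which packages mitochondrial DNA and activates its transcription, was at 10.4 and 10.3 FPKM in knockdown, against 13.1 and 11.7 FPKM in the controls. Both were lower in each knockdown sample than in each control, while the summed mitochondrially encoded mRNAs were not.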
